A study of Mus musculus with 2 samples.

Results

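The 5 genes described here encode the fibroblast growth factor (FGF) receptors Fgfr1, Fgfr2 and Fgfr3 and the secreted FGF-binding proteins Fgfbp1 and Fgfbp3. They are 5 of the 25595 genes counted in at least 1 of 2 single-cell RNA-seq libraries of mouse cerebral cortex dissociated with its meninges. The N-PRα-KO library came from Nestin-Cre;Pdgfraflox/flox mice, in which Cre under the Nestin promoter acts mainly in the neural lineage on a floxed Pdgfra, and the WT library came from C57BL/6J mice. Both suspensions were enriched with magnetic beads for CD140a, the protein that Pdgfra encodes, and captured on the BD Rhapsody system. The study was designed around the diversity of activated fibroblasts in a cortex that lacks normal myelin. The 5 genes were chosen by their levels per class and library in these same data, so every value below is a description and none was tested. There was 1 library per genotype and no replicate. Y-linked genes held 3973 UMIs (unique molecules) in the N-PRα-KO and 300 UMIs in the WT library. The X-linked gene Xist held 16854 UMIs in the N-PRα-KO and 57638 UMIs in the WT library. Age, sex, number of animals and pipeline run coincide with genotype and cannot be told apart from it. All intervals are 95% and cover counting error only.

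FGF receptors are membrane tyrosine kinases that bind an FGF ligand together with heparan sulfate and signal through the adaptor Frs2 to the Ras and MAP kinase pathway. Sprouty, Spred and Dusp6 proteins damp that signal, and the Ets factors Etv1, Etv4 and Etv5 are among its common target genes. FGF-binding proteins hold FGFs in solution and can release them from heparan sulfate in the matrix. In the mouse brain, Fgfr3 is a classic astrocyte gene, Fgfr1 and Fgfr2 are used by neural progenitors and glia, and Fgfr2 is abundant in myelinating oligodendrocytes. Fgfbp1 is known from brain endothelium as a Wnt-responsive gene.

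In GENCODE M21 on GRCm38, Fgfr1 lies on chromosome 8 from 25513654 to 25575718 on the plus strand. Fgfr3 lies on chromosome 5 from 33721674 to 33737068 on the plus strand, and Fgfbp1 on the same chromosome from 43978858 to 43981779 on the minus strand. Fgfbp3 lies on chromosome 19 from 36917550 to 36919615 on the minus strand. The annotated Fgfr2 gene runs from 130162451 to 133123350 on the minus strand of chromosome 7, and that long model spans 69 other annotated genes. Fgfr1 and Fgfr3 each overlap 1 annotated gene on the opposite strand. The sources used here do not say whether the counting used strand, so reads from such partners cannot be told apart. The counts also sum over splice forms, so the receptor isoforms with different ligand preference cannot be told apart.

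The RefSeq promoter table for GRCm38.p6 held entries for 4 of the 5 genes. The windows of Fgfr3, Fgfbp3 and Fgfbp1 are shown because these 3 genes had the largest absolute log2 ratios between the libraries in the class where each was most abundant. Each window has 250 bases before and 50 bases after the annotated start, is written 5′ to 3′ on the gene's strand, and carries in capitals every match on either strand to the GC box GGGCGG, the TATA box TATAAA and the CCAAT box CCAAT.
Fgfr3 (chr5:33721474-33721773, plus strand): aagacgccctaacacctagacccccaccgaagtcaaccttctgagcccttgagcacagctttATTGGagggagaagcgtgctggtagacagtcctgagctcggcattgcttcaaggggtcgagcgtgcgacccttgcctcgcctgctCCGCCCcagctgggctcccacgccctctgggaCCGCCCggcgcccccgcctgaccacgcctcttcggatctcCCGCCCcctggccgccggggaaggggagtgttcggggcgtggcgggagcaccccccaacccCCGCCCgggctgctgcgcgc
Fgfbp3 (chr19:36919550-36919849, minus strand): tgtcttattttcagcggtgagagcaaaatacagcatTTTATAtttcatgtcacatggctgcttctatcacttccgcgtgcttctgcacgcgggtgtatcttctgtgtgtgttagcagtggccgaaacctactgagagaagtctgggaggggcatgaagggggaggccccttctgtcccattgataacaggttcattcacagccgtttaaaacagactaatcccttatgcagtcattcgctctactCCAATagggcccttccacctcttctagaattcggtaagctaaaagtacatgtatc
Fgfbp1 (chr5:43981750-43982049, minus strand): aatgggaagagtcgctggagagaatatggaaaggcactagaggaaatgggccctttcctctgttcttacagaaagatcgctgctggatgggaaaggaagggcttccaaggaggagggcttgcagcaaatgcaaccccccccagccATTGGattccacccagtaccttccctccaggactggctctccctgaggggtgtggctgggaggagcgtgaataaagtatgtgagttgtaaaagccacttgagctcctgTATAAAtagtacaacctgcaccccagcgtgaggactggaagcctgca
The Fgfr3 window was 69.7% G or C with 26 CpG dinucleotides, 4 GC boxes and 1 CCAAT box. The Fgfbp3 window was 46.7% G or C with 9 CpGs and had 1 TATA box and 1 CCAAT box. The Fgfbp1 window was 53.3% G or C with 4 CpGs and also had 1 TATA box and 1 CCAAT box. A second annotated Fgfr3 start (chr5:33722056-33722355) had 73.0% G or C, 30 CpGs and 2 GC boxes. Among 32851 mouse promoter windows of this length, the median was 52.7% G or C and 7 CpGs, 35.7% held a GC box, 13.6% a TATA box and 37.4% a CCAAT box. So the first Fgfr3 window was richer in G and C than 89.9% of mouse promoter windows and the Fgfbp3 window than 27.3% of them. These matches describe letters in a window and say nothing about which factors bind there.

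Sequencing yielded 41982217 UMIs over 8336 barcodes for N-PRα-KO and 43459947 UMIs over 11438 barcodes for WT. After filtering, 4186 N-PRα-KO cells with a median of 5781 UMIs and 9895 WT cells with a median of 3264 UMIs were used, and 38 barcodes that passed the cell filter occurred in both libraries. Clusters were named from marker genes without using the 5 genes or other FGF pathway genes. The classes that mattered most held 947 N-PRα-KO and 505 WT fibroblast-like cells, 665 and 1826 astrocyte-like cells, 498 and 347 ependymal-like cells, 538 and 348 endothelial-like cells, and 67 and 5038 oligodendrocyte-lineage-like cells. N-PRα-KO and WT cells lay mostly in separate clusters within the fibroblast-like, astrocyte-like, ependymal-like, endothelial-like, microglia-like and oligodendrocyte-lineage-like classes. The clusters of arachnoid barrier-like, mural-like and border-macrophage-like cells held both libraries. Of the WT fibroblast-like cells, sub-clusters of 81, 62 and 19 cells took no sub-class, so the fibroblast-like sub-classes cover only part of the WT class. Pdgfra, the targeted gene and the target of the sort, stood at 1928 CPM (counts-per-million of the class's UMIs) in N-PRα-KO and 4643 CPM in WT oligodendrocyte-lineage-like cells, and at 710 and 870 CPM in N-PRα-KO and WT fibroblast-like cells. In N-PRα-KO arachnoid barrier-like cells, the summed barrier markers stood at 2360 CPM, below the 3735 CPM that another class of that library reached, so that label is the least secure.

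Levels are CPM of all UMIs of a class in a library. Microglia-like cells were used to gauge the free RNA that any cell may carry, because Fgfr2 and Fgfr3 are not known as microglial genes. There Fgfr3 stood at 19.9 CPM in N-PRα-KO and 0.52 CPM in WT cells, Fgfr2 at 9.33 and 2.59 CPM, Fgfr1 at 14.2 and 12.96 CPM, Fgfbp3 at 4.22 and 8.81 CPM, and Fgfbp1 at 1.51 and 2.59 CPM. The summed astrocyte markers in the same cells were 1196 CPM in N-PRα-KO and 665 CPM in WT. A level near these values in another class was read as background. Sub-clusters of 52 N-PRα-KO and 75 WT microglia-like cells had Lhfpl3, an oligodendrocyte-lineage marker, among their leading genes. Their part in the microglia-like values was not tested, so those values may not measure free RNA alone.

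**Figure D1:**
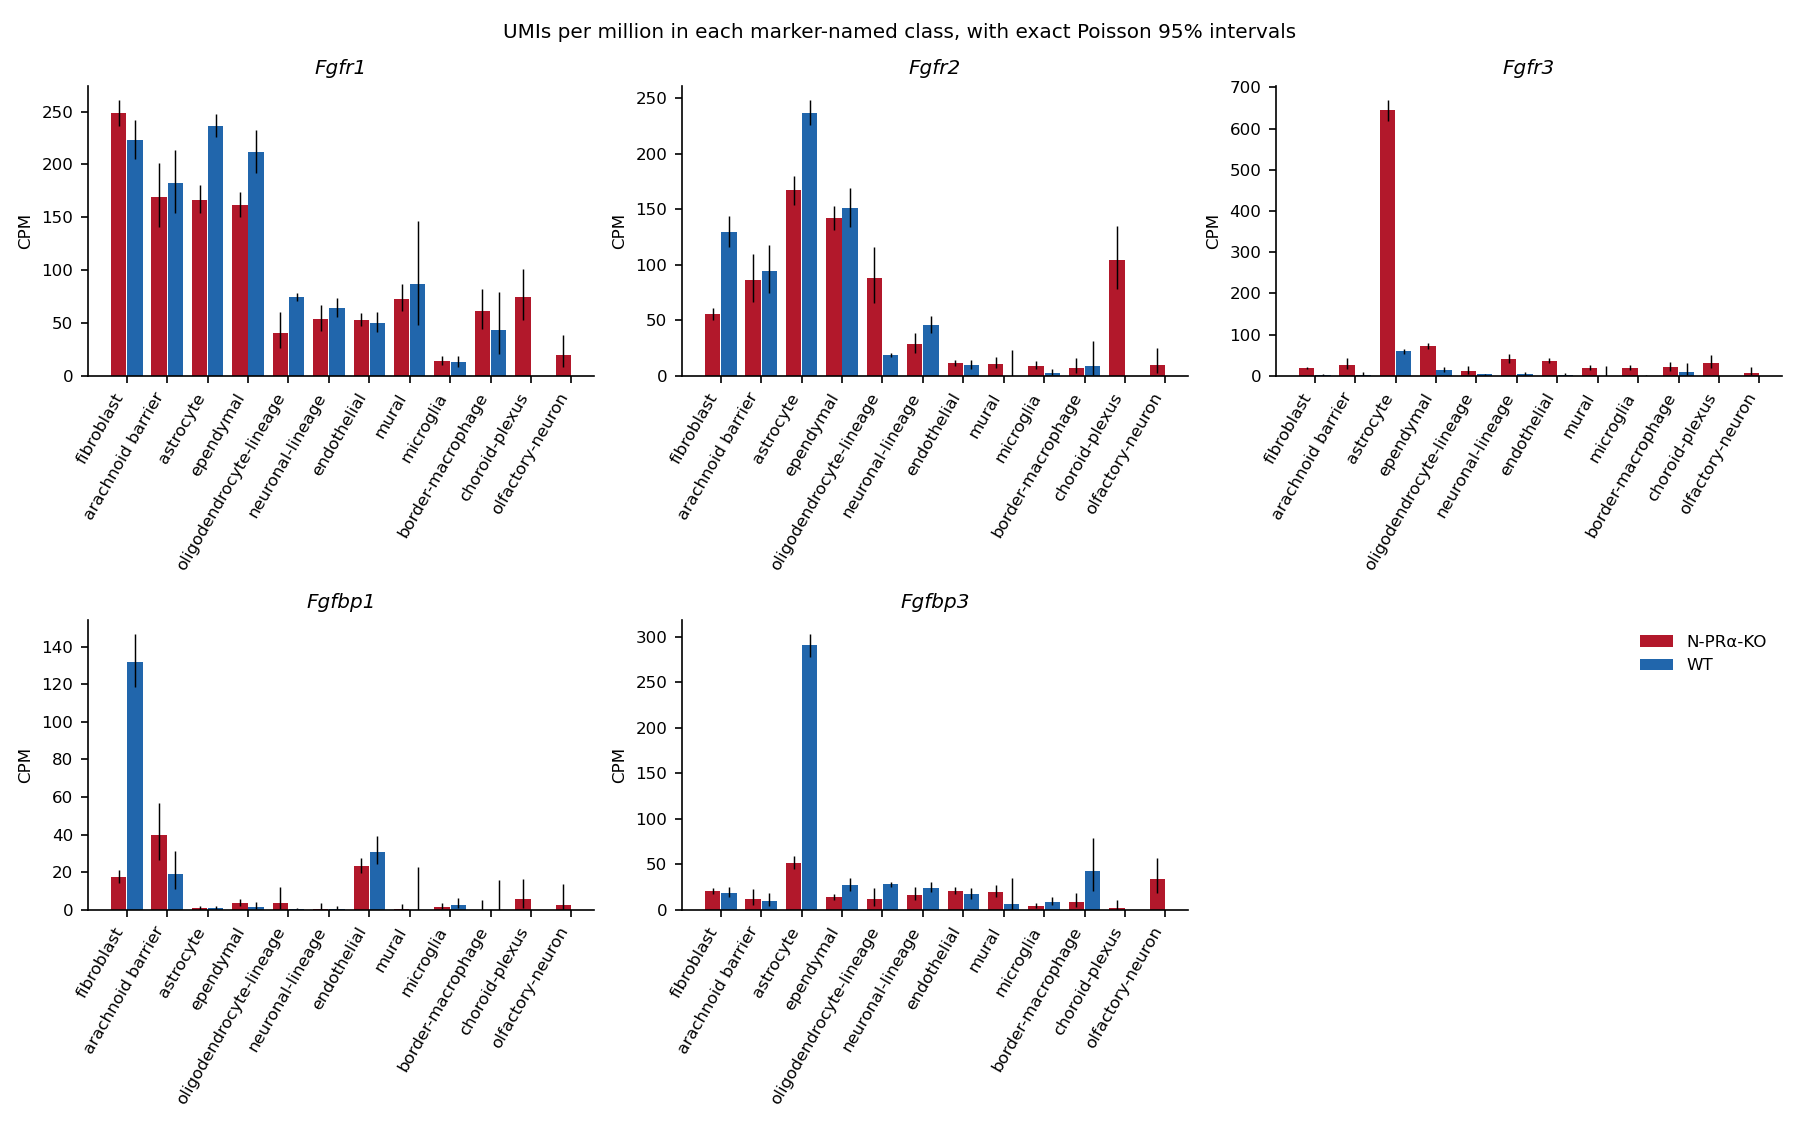
Levels of the 5 genes in CPM (vertical axes, linear, each panel with its own range) in each marker-named class (horizontal axes), N-PRα-KO in red to the left of WT in blue, with exact Poisson 95% intervals as black lines; no WT bar is drawn for the choroid-plexus-like and olfactory-neuron-like classes, which were described in N-PRα-KO cells alone. Fgfr3 stands at 644 CPM in N-PRα-KO and 59.5 CPM in WT astrocyte-like cells, and Fgfbp3 at 51.7 and 290 CPM in the same classes.

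Fgfr1, the receptor with the broadest distribution here, was abundant in 4 classes of both libraries. It stood at 249 CPM (interval 237 to 261) in N-PRα-KO and 223 CPM (205 to 242) in WT fibroblast-like cells. In astrocyte-like cells it was at 167 CPM in N-PRα-KO and 237 CPM in WT, in ependymal-like cells at 162 and 212 CPM, and in arachnoid barrier-like cells at 169 and 182 CPM. Among N-PRα-KO cells the fibroblast-like class led and the other 3 of these classes had overlapping intervals. In the WT library the astrocyte-like, fibroblast-like and ependymal-like intervals overlapped. Mural-like cells (73.0 CPM in N-PRα-KO and 87.2 CPM in WT), neuronal-lineage-like cells (54.0 and 64.6 CPM) and endothelial-like cells (53.3 and 49.9 CPM) held lower levels, and microglia-like cells the lowest of the classes with a WT value.

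The Fgfr1 ratio as measured was under 2-fold in each class compared. In oligodendrocyte-lineage-like cells the log2 ratio was -0.87 (-1.52 to -0.29) on 24 N-PRα-KO UMIs, -1.21 with the microglia-like level subtracted, and -0.47 (-1.18 to 0.16) within precursor-like cells. In arachnoid barrier-like cells it was -0.11 (-0.46 to 0.24), and -1.05 (-2.06 to -0.15) after thinning, on 13 N-PRα-KO and 49 WT UMIs. Its N-PRα-KO over WT log2 ratio in fibroblast-like cells was 0.16 (interval 0.02 to 0.30). The fibroblast-like ratio was 0.00 after every cell was thinned to 2000 UMIs, and 0.13 (-0.01 to 0.27) without the 19 WT cells led by precursor genes. Sub-classes of the fibroblast-like cells also had overlapping intervals, with 269 CPM in N-PRα-KO and 264 CPM in WT perivascular and pial fibroblast-like cells, and 201 and 183 CPM in arachnoid fibroblast-like cells. The log2 ratio was -0.51 (-0.64 to -0.37) in astrocyte-like and -0.39 (-0.56 to -0.21) in ependymal-like cells, where removing the trend with GC content brought it to -0.16 and -0.11. Germinal-zone astrocyte-like cells held more Fgfr1 than parenchymal ones in both libraries, with 221 against 147 CPM in N-PRα-KO and 292 against 209 CPM in WT. Among fibroblast-like cells, 72.0% in N-PRα-KO and 58.8% in WT had a Fgfr1 UMI. After thinning the shares were 36.5% for N-PRα-KO and 36.6% for WT, against 2.96% and 1.45% of microglia-like cells.

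Fgfr2, the receptor whose alternative splice forms serve epithelia and mesenchyme, was at its highest class level in astrocyte-like cells. It stood there at 167 CPM (154 to 180) in N-PRα-KO and 237 CPM (226 to 249) in WT, a log2 ratio of -0.51 (-0.64 to -0.37), and at -0.27 with median-of-ratios scaling. Parenchymal and germinal-zone astrocyte-like cells resembled each other, with 161 and 182 CPM in N-PRα-KO and 241 and 228 CPM in WT. Ependymal-like cells followed with 142 CPM in N-PRα-KO and 151 CPM in WT, intervals that overlapped. The 39 choroid-plexus-like cells, all N-PRα-KO, held 104 CPM of Fgfr2 (56 UMIs). A Fgfr2 UMI was found in 49.6% of N-PRα-KO and 51.8% of WT astrocyte-like cells, and after thinning in 26.8% and 35.5%, against 1.92% and 0.62% of microglia-like cells.

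Among fibroblast-like cells, Fgfr2 was higher in the arachnoid sub-class than in the perivascular and pial one, in both libraries. Arachnoid fibroblast-like cells held 125 CPM in N-PRα-KO and 236 CPM in WT, while perivascular and pial fibroblast-like cells held 26.3 and 36.2 CPM. For the whole class the levels were 55.5 CPM in N-PRα-KO and 130 CPM in WT, a log2 ratio of -1.22 (-1.44 to -1.004). The ratio was -0.92 (-1.20 to -0.64) within the arachnoid sub-class and -0.46 (-0.99 to 0.09) within the perivascular and pial one. Perivascular and pial cells numbered 646 among 947 N-PRα-KO and 195 among 505 WT fibroblast-like cells, so the make-up of the class differed as well. WT cells without a sub-class also entered the WT value of the whole class. After thinning, 19.4% of N-PRα-KO and 39.0% of WT arachnoid fibroblast-like cells had a Fgfr2 UMI.

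In oligodendrocyte-lineage-like cells Fgfr2 was higher in myelinating than in precursor-like cells of both libraries. Precursor-like cells had 0 Fgfr2 UMIs among 58 N-PRα-KO cells and 7.63 CPM among 4817 WT cells, against 9.33 and 2.59 CPM in microglia-like cells. The exact interval of that 0 reaches 10.6 CPM. The 100 committed precursor-like cells, all from the WT library, held 97.2 CPM (75.0 to 124). Myelinating oligodendrocyte-like cells held 217 CPM (162 to 285, 9 cells) in N-PRα-KO and 238 CPM (201 to 280, 49 cells) in WT. All 52 Fgfr2 UMIs of the N-PRα-KO class came from 8 of its 67 cells, all of them myelinating. The log2 ratio of 2.26 (1.81 to 2.68) for the whole class, with 88.3 CPM in N-PRα-KO and 18.5 CPM in WT, sat beside this difference in make-up, and the myelinating sub-class alone had overlapping intervals.

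**Figure D2:**
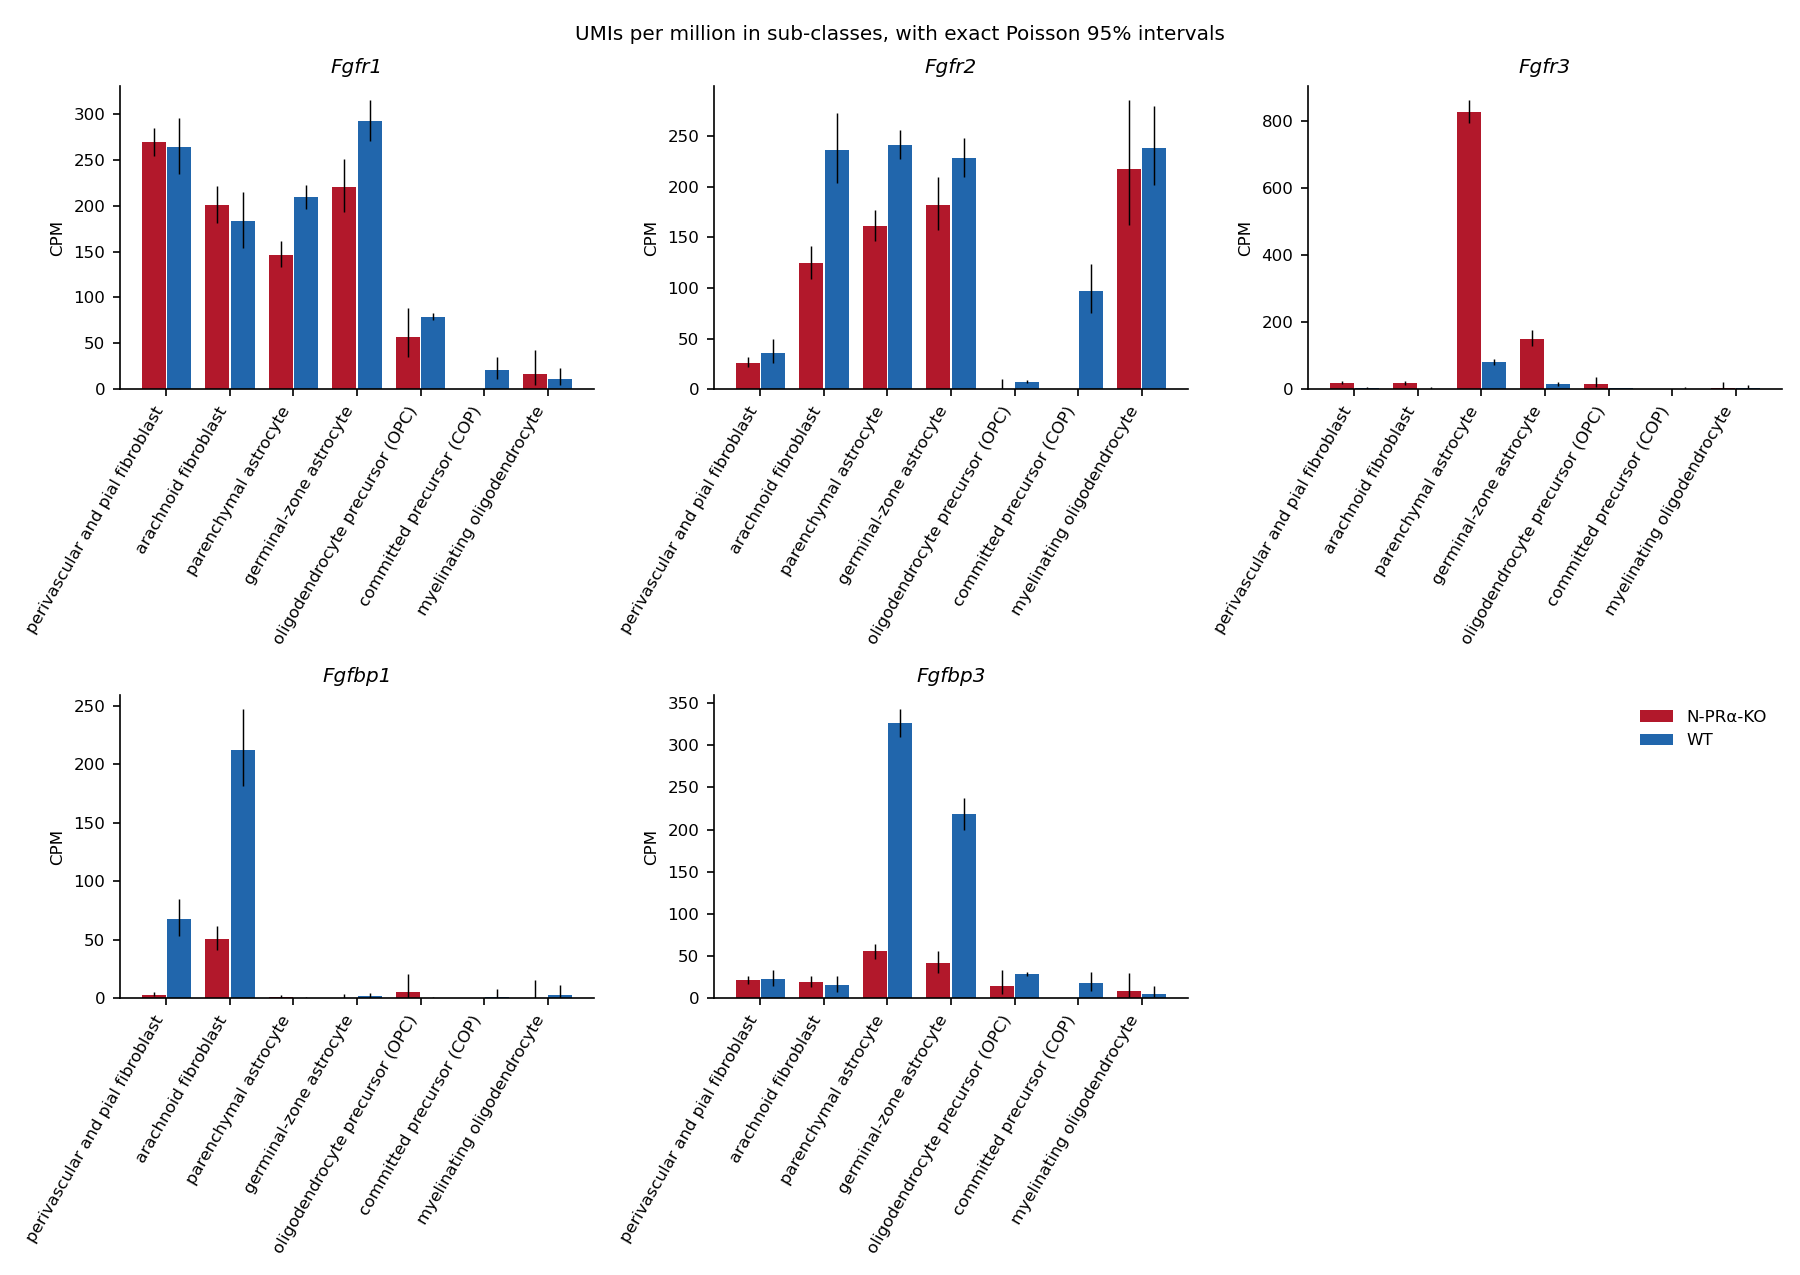
Levels of the 5 genes in CPM (vertical axes, linear) in sub-classes of the fibroblast-like, astrocyte-like and oligodendrocyte-lineage-like cells, N-PRα-KO in red to the left of WT in blue, with exact Poisson 95% intervals as black lines; there were no N-PRα-KO committed precursor-like cells. Fgfr2 stands at 217 CPM in N-PRα-KO and 238 CPM in WT myelinating oligodendrocyte-like cells and near 0 in precursor-like cells, and Fgfbp1 stands higher in arachnoid than in perivascular and pial fibroblast-like cells of both libraries.

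Fgfr3, the receptor that marks astrocytes, had the largest absolute log2 ratio of the 5 genes in the class where each was highest. In astrocyte-like cells it stood at 644 CPM (619 to 670, 2476 UMIs) in N-PRα-KO and 59.5 CPM (54.0 to 65.4, 430 UMIs) in WT, a log2 ratio of 3.43 (3.29 to 3.59). Among 7116 genes that reached 20 CPM in this class in at least 1 library, 68 had a higher ratio. Parenchymal astrocyte-like cells held 826 CPM in N-PRα-KO and 81.3 CPM in WT, and germinal-zone astrocyte-like cells 150 and 15.5 CPM. So within each library the parenchymal cells held the higher level, and within each sub-class the log2 ratio was close to that of the whole class, at 3.34 (3.19 to 3.50) in parenchymal and 3.28 (2.75 to 3.84) in germinal-zone cells.

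The difference was also seen in the share of cells. After thinning to 2000 UMIs, a Fgfr3 UMI was found in 74.5% of N-PRα-KO and 16.0% of WT parenchymal astrocyte-like cells, and in 21.2% and 2.73% of germinal-zone astrocyte-like cells. For all astrocyte-like cells the shares were 52.8% in N-PRα-KO and 10.3% in WT, against 68.9% and 18.4% without thinning, at median depths of 4498 and 3066.5 UMIs. In microglia-like cells, with median depths of 5614.5 UMIs in N-PRα-KO and 2798 in WT, the thinned shares were 4.01% and 0%, the second from 0 of 484 cells with an exact upper limit of 0.76%.

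Other classes held far less Fgfr3. Ependymal-like cells stood at 72.0 CPM in N-PRα-KO and 14.1 CPM in WT, a log2 ratio of 2.35 (1.80 to 2.97), and both values were above the microglia-like level of their library. Neuronal-lineage-like cells stood at 41.4 and 5.12 CPM and endothelial-like cells at 36.8 and 3.15 CPM. Of the 59 N-PRα-KO neuronal-lineage-like UMIs, 50 lay in a cluster at 68.0 CPM, while other clusters stood at 14.3 and 12.2 CPM. A sub-cluster of 65 N-PRα-KO endothelial-like cells had the astrocyte marker Slc1a2 among its leading genes. One of 39 N-PRα-KO neuronal-lineage-like cells had Ntsr2, a gene highest in astrocyte-like cells. The part of these sub-clusters was not tested. Fibroblast-like cells at 18.96 CPM in N-PRα-KO and 1.95 CPM in WT were at or near the microglia-like level. The N-PRα-KO level of Fgfr3 was thus the higher of the pair in each of the 10 classes compared, microglia-like cells included. In mural-like and border-macrophage-like cells the interval of the log2 ratio held 0. Mural-like cells had 36 UMIs in N-PRα-KO and 0 in WT, a floored ratio of 0.07 (-1.59 to 2.41). Border-macrophage-like cells had 15 and 2 UMIs, a ratio of 0.69 (-1.13 to 3.12). Arachnoid barrier-like cells had 20 and 2 UMIs. With the microglia-like level subtracted, the log2 ratio was 3.40 in astrocyte-like and 1.94 in ependymal-like cells. The same step gave 2.23 in neuronal-lineage-like cells, against 3.02 as measured, and 2.69 in endothelial-like cells, against 3.55.

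Astrocyte marker genes gave smaller ratios than Fgfr3. Of the 10 astrocyte markers, 2 were at least 2-fold higher in N-PRα-KO astrocyte-like cells and 0 were at least 2-fold lower, with a median log2 ratio of 0.09. Aldh1l1, a folate enzyme gene used to mark astrocytes, stood at 283 CPM in N-PRα-KO and 37.0 CPM in WT, and Gfap, an intermediate filament gene of reactive and white-matter astrocytes, at 2098 and 1006 CPM. Slc1a2, the main glutamate transporter gene, stood at 15949 and 12343 CPM, and Aqp4, the water channel gene, at 1571 and 2305 CPM. Genes of cell division summed to 38.2 CPM in N-PRα-KO and 173 CPM in WT astrocyte-like cells, and without dividing sub-clusters the Fgfr3 log2 ratio was 3.43 (3.28 to 3.58).

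**Figure D3:**
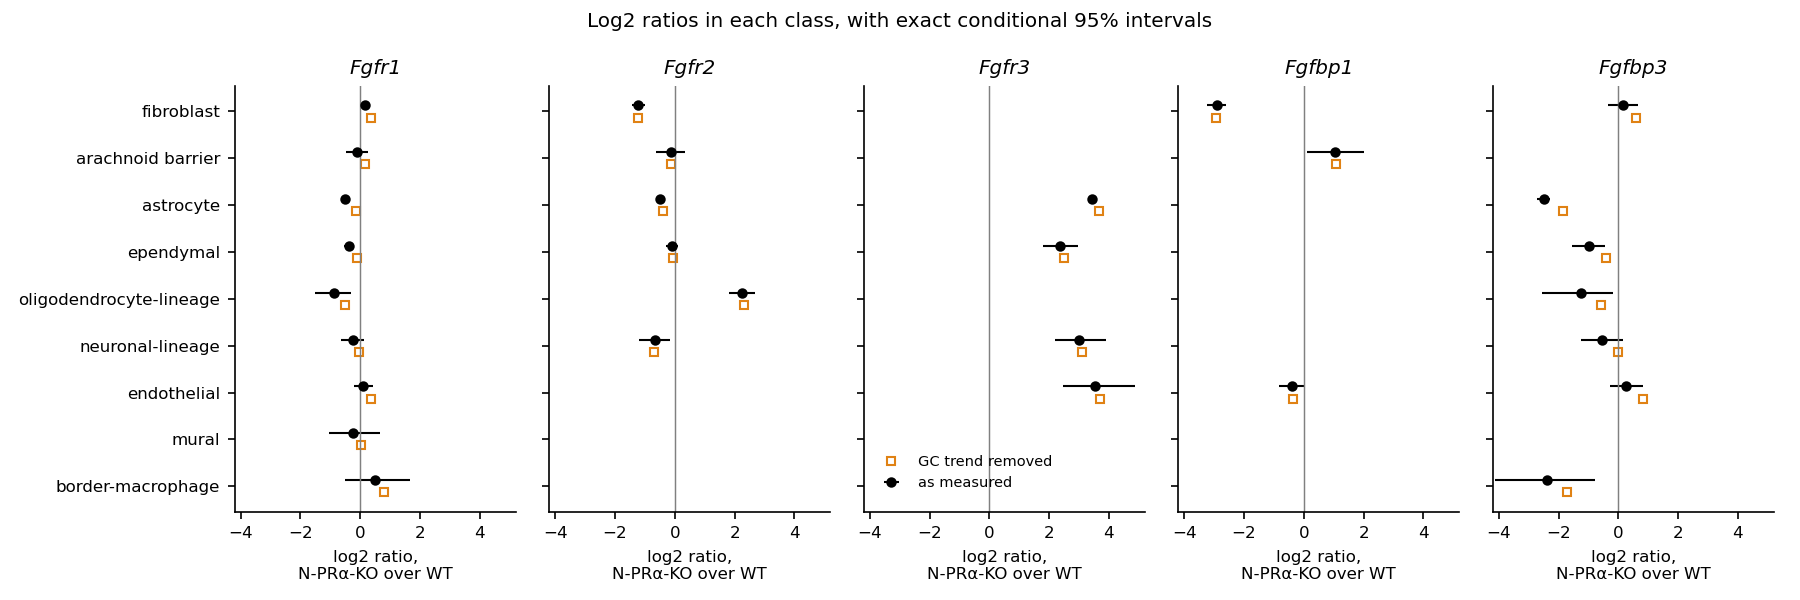
Log2 ratios of N-PRα-KO over WT (horizontal axes) for each of the 5 genes in each class where the gene reached 20 CPM in either library and had at least 3 UMIs in both (vertical axis); black points with exact conditional 95% intervals are the measured ratios and orange squares the ratios after the trend with GC content was removed. Fgfr3 lies right of 0 in all 4 classes drawn, up to 3.55 in endothelial-like cells (2.69 with the microglia-like level subtracted, which is not drawn), while Fgfbp1 lies at -2.92 in fibroblast-like and 1.04 in arachnoid barrier-like cells. A sub-cluster of 65 N-PRα-KO endothelial-like cells had the astrocyte marker Slc1a2 among its leading genes.

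Fgfbp3, a secreted binding protein that holds FGFs in solution, had its highest class level in astrocyte-like cells of both libraries. Astrocyte-like cells held 51.7 CPM (44.8 to 59.5, 199 UMIs) in N-PRα-KO and 290 CPM (278 to 303, 2097 UMIs) in WT, a log2 ratio of -2.49 (-2.71 to -2.28). Among the 7116 genes compared, 14 had a lower ratio. Both sub-classes differed, with 55.6 CPM in N-PRα-KO and 326 CPM in WT parenchymal astrocyte-like cells and 41.4 and 218 CPM in germinal-zone ones. After thinning, 9.68% of N-PRα-KO and 31.6% of WT astrocyte-like cells had a Fgfbp3 UMI (17.1% and 40.0% without thinning), against 1.05% and 1.45% of microglia-like cells. The last 500 bases of its transcript were 32.0% G or C, the lowest of the 5 genes, and with the GC trend removed the ratio was -1.86.

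Outside astrocyte-like cells, the highest Fgfbp3 levels rested on few UMIs. Border-macrophage-like cells held 8.32 CPM (6 UMIs) in N-PRα-KO and 43.0 CPM (20.6 to 79.1, 10 UMIs) in WT. A sub-cluster of 15 of these 75 WT cells had the astrocyte markers Slc1a3, Aqp4 and Slc4a4 among its leading genes. A sub-cluster of 26 of the 108 N-PRα-KO cells had the granulocyte markers S100a8 and S100a9. The part of these sub-clusters was not tested. Olfactory-neuron-like cells of N-PRα-KO held 34.0 CPM (18.6 to 56.98, 14 UMIs). The intervals around 43.0 and 34.0 CPM overlapped that of N-PRα-KO astrocyte-like cells. Fibroblast-like cells held 20.6 CPM in N-PRα-KO and 18.7 CPM in WT, a log2 ratio of 0.14 (-0.35 to 0.65). Endothelial-like cells held 20.8 and 17.5 CPM and neuronal-lineage-like cells 16.8 and 24.3 CPM. Ependymal-like cells held 13.7 and 27.2 CPM, a log2 ratio of -0.99 (-1.54 to -0.44) that was -0.40 with the GC trend removed. Fgfr3 and Fgfbp3 therefore lay on opposite sides of 0 in astrocyte-like and ependymal-like cells.

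Fgfbp1, known to release FGF2 from heparan sulfate, was found in fibroblast-like, arachnoid barrier-like and endothelial-like cells. Fibroblast-like cells held 17.4 CPM (14.4 to 20.9, 114 UMIs) in N-PRα-KO and 132 CPM (118 to 147, 338 UMIs) in WT, a log2 ratio of -2.92 (-3.24 to -2.61). Of the 7313 genes compared, 29 had a lower ratio. Arachnoid fibroblast-like cells held the higher level in both libraries, at 50.9 CPM in N-PRα-KO and 212 CPM in WT. Perivascular and pial fibroblast-like cells stood at 3.26 CPM in N-PRα-KO, near the microglia-like level, and at 67.9 CPM in WT. The log2 ratios were -2.06 (-2.43 to -1.69) and -4.38 (-5.29 to -3.57) in these sub-classes. Of the 195 WT perivascular and pial fibroblast-like cells, 69 lay in a weakly named sub-cluster. Its sub-class markers had a mean log2 fold of 0.15, and its leading genes included the arachnoid barrier marker Cldn11. The part of these 69 cells in the WT level was not tested. Among fibroblast-like cells, 5.17% in N-PRα-KO and 26.5% in WT had a Fgfbp1 UMI. After thinning the shares were 1.80% for N-PRα-KO and 17.1% for WT, against 0.17% and 0.21% of microglia-like cells.

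The arachnoid barrier-like cells lay the other way, with few UMIs. They held 39.6 CPM (29 UMIs in 64 cells) in N-PRα-KO and 19.2 CPM (16 UMIs in 120 cells) in WT, a log2 ratio of 1.04 (0.12 to 2.02). Without the dividing sub-clusters the ratio was 2.96 on 27 and 4 UMIs. Haemoglobin genes, which red blood cells fill with transcripts, summed to 1179 CPM in N-PRα-KO and 0 CPM in WT cells of this class, and their part was not tested. Endothelial-like cells held 23.4 CPM in N-PRα-KO and 31.0 CPM in WT, a log2 ratio of -0.41 (-0.84 to 0.04), and of -0.58 (-1.03 to -0.11) without dividing sub-clusters. Within them Fgfbp1 was found in the main cluster of each library, at 27.0 CPM in N-PRα-KO and 37.95 CPM in WT, whereas a cluster of both libraries that had Gkn3, Sema3g and Sox17 among its leading genes, genes of arterial endothelium, held 2.44 and 4.36 CPM, from 2 UMIs each. Astrocyte-like and neuronal-lineage-like cells stood under 1 CPM in both libraries. Mural-like cells had 1 Fgfbp1 UMI in N-PRα-KO and 0 in WT, where the exact interval reaches 23.0 CPM.

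The number of genes past a 2-fold difference must be read against a high background, because many genes differed between these libraries. In fibroblast-like cells 4 of the 5 genes reached 20 CPM, and 2 of them, Fgfr2 and Fgfbp1, were at least 2-fold lower in N-PRα-KO, where 8.41% of all genes tested were lower and 16.1% higher by that much. In astrocyte-like cells 1 of 4, Fgfr3, was at least 2-fold higher (14.1% of all genes) and 1, Fgfbp3, lower (7.46% of all genes). In 3 further classes 4 genes were tested, Fgfr3 was at least 2-fold higher and 0 were lower. The background there was 14.4% higher and 6.05% lower in ependymal-like, 16.9% and 6.11% in neuronal-lineage-like, and 17.3% and 9.44% in endothelial-like cells. In arachnoid barrier-like cells 4 were tested, and Fgfr3 and Fgfbp1 were higher and 0 lower (17.4% and 9.98% of all genes), Fgfr3 with 2 WT UMIs. In oligodendrocyte-lineage-like cells 3 genes were tested, Fgfr2 was higher (17.4% of all genes) and Fgfbp3 lower (13.5%). That Fgfbp3 ratio, -1.23, rests on 7 N-PRα-KO UMIs, and was -0.57 with the GC trend removed and -1.02 (-2.65 to 0.22) within precursor-like cells. In border-macrophage-like cells 3 were tested, 0 were higher (17.2% of all genes) and Fgfbp3 was lower (15.8%), with 6 UMIs in N-PRα-KO and 10 in WT. In microglia-like cells 0 reached 20 CPM (16.3% of all genes were higher and 9.39% lower), and neither gene tested in mural-like cells passed (11.7% higher and 13.9% lower). Because all 5 genes were chosen with these values known, nothing is read from these counts.

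Receptors were also counted together per cell. After thinning, at least 1 UMI of any of the 3 receptors was found in 75.0% of N-PRα-KO (interval 71.2 to 78.5) and 63.8% of WT astrocyte-like cells (61.2 to 66.4). In fibroblast-like cells the shares were 45.9% for N-PRα-KO (42.6 to 49.1) and 53.0% for WT (48.4 to 57.7), intervals that overlapped. Microglia-like cells gave 8.36% in N-PRα-KO and 2.07% in WT. At least 2 receptors were seen together in 28.9% of N-PRα-KO and 19.2% of WT astrocyte-like cells, and in 3.08% and 9.09% of fibroblast-like cells.

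The rest of the FGF pathway was followed in a list of 72 genes. In astrocyte-like cells 40 of them reached 20 CPM in either library. Of these, 6 were at least 2-fold higher and 6 lower in N-PRα-KO, where 14.1% of all genes tested were higher and 7.46% lower. The median log2 ratio of the 40 was -0.17, beside -0.15 for all 7116 genes. Sdc4, a heparan sulfate proteoglycan of the cell surface, stood at 586 CPM in N-PRα-KO and 114 CPM in WT. Fgfrl1, a receptor-like protein without a kinase domain, stood at 69.4 and 19.4 CPM, and Hspg2, the basement membrane proteoglycan perlecan, at 24.96 and 3.88 CPM. With the GC trend removed, the log2 ratio of Fgfrl1 was 1.23, against 1.84 as measured, and that of Hspg2 1.22, against 2.69. Plcg1, a phospholipase that binds activated receptors, stood at 35.6 and 12.05 CPM, and Ext2, an enzyme that builds heparan sulfate chains, at 28.6 and 10.5 CPM. Egr1, an immediate early gene, stood at 79.1 CPM in N-PRα-KO and 225 CPM in WT.

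Of the feedback inhibitors in astrocyte-like cells, 7 reached 20 CPM and 3 of these were at least 2-fold lower in N-PRα-KO, where 7.46% of all genes tested were. All 7 had a log2 ratio below 0, while 3039 of the 7116 genes tested lay above 0. The 7 had a median log2 ratio of -0.99, and of -0.53 with the GC trend removed. Spry2, a Sprouty protein, stood at 122 CPM in N-PRα-KO and 290 CPM in WT, a log2 ratio of -1.25 (-1.39 to -1.10), or -0.53 with the GC trend removed. Spry1 stood at 15.9 and 33.1 CPM and Il17rd, a membrane inhibitor of FGF signalling, at 17.4 and 38.6 CPM, whereas Dusp6, a phosphatase that inactivates ERK, stood at 71.0 and 95.5 CPM. With the GC trend removed, Dusp6 (0.13) and Spred1 (0.03) lay above 0. The median log2 ratio of genes at 50 CPM or more in both libraries was -0.24, and all 7 were below that too. The 7 did not lie alike in the sub-classes. In parenchymal astrocyte-like cells all 7 were below 0, whereas in germinal-zone astrocyte-like cells Dusp6 stood at 37.6 CPM in N-PRα-KO and 18.4 CPM in WT, a log2 ratio of 1.03 (0.37 to 1.68). Spry4 (0.53) and Spry1 (0.20) were also above 0 there, on few UMIs. Of the 6 target genes, Etv5 was at least 2-fold higher, at 124 CPM in N-PRα-KO and 47.5 CPM in WT (14.1% of all genes). Another 3, Egr1 among them, were at least 2-fold lower (7.46% of all genes). The 6 target genes had a median log2 ratio of -0.81, and of -0.44 with the GC trend removed. Of 17 ligand genes 2 reached 20 CPM. These were Fgf1, at 97.0 CPM in N-PRα-KO and 56.1 CPM in WT and Fgf2, at 26.8 and 38.4 CPM.

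In fibroblast-like cells 40 list genes reached 20 CPM. Of these, 8 were at least 2-fold higher and 8 lower in N-PRα-KO, where 16.1% of all genes tested were higher and 8.41% lower. The median log2 ratio of the 40 was -0.09, beside -0.00 for all 7313 genes. Hs6st2, a sulfotransferase of heparan sulfate, stood at 13.5 CPM in N-PRα-KO and 123 CPM in WT. The target genes Etv4 and Etv5 stood at 26.3 and 3.90 CPM and at 59.0 and 13.3 CPM in N-PRα-KO and WT. All 6 target genes of the list reached 20 CPM, of which 3 were at least 2-fold higher and 2 at least 2-fold lower in N-PRα-KO. Plcg1 stood at 51.1 and 8.20 CPM, the proteoglycan gene Gpc6 at 65.8 and 14.4 CPM, and Ext2 at 64.4 and 17.2 CPM. With the GC trend removed, the log2 ratio of Etv4 was 1.58, against 2.75 as measured, and that of Plcg1 2.05, against 2.64. Fgf2, the 1 ligand that reached 20 CPM, stood at 32.3 CPM in N-PRα-KO and 77.7 CPM in WT, and the co-receptor gene Kl at 17.3 and 54.3 CPM. Of the 6 feedback inhibitors measured, Spry4 was at least 2-fold higher (225 CPM in N-PRα-KO and 71.4 CPM in WT) and 0 were lower. Of all genes tested, 16.1% were higher and 8.41% lower. The median log2 ratio of the 6 was -0.01. Whether the feedback inhibitors differ between the astrocyte-like and fibroblast-like classes was not tested.

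**Figure D4:**
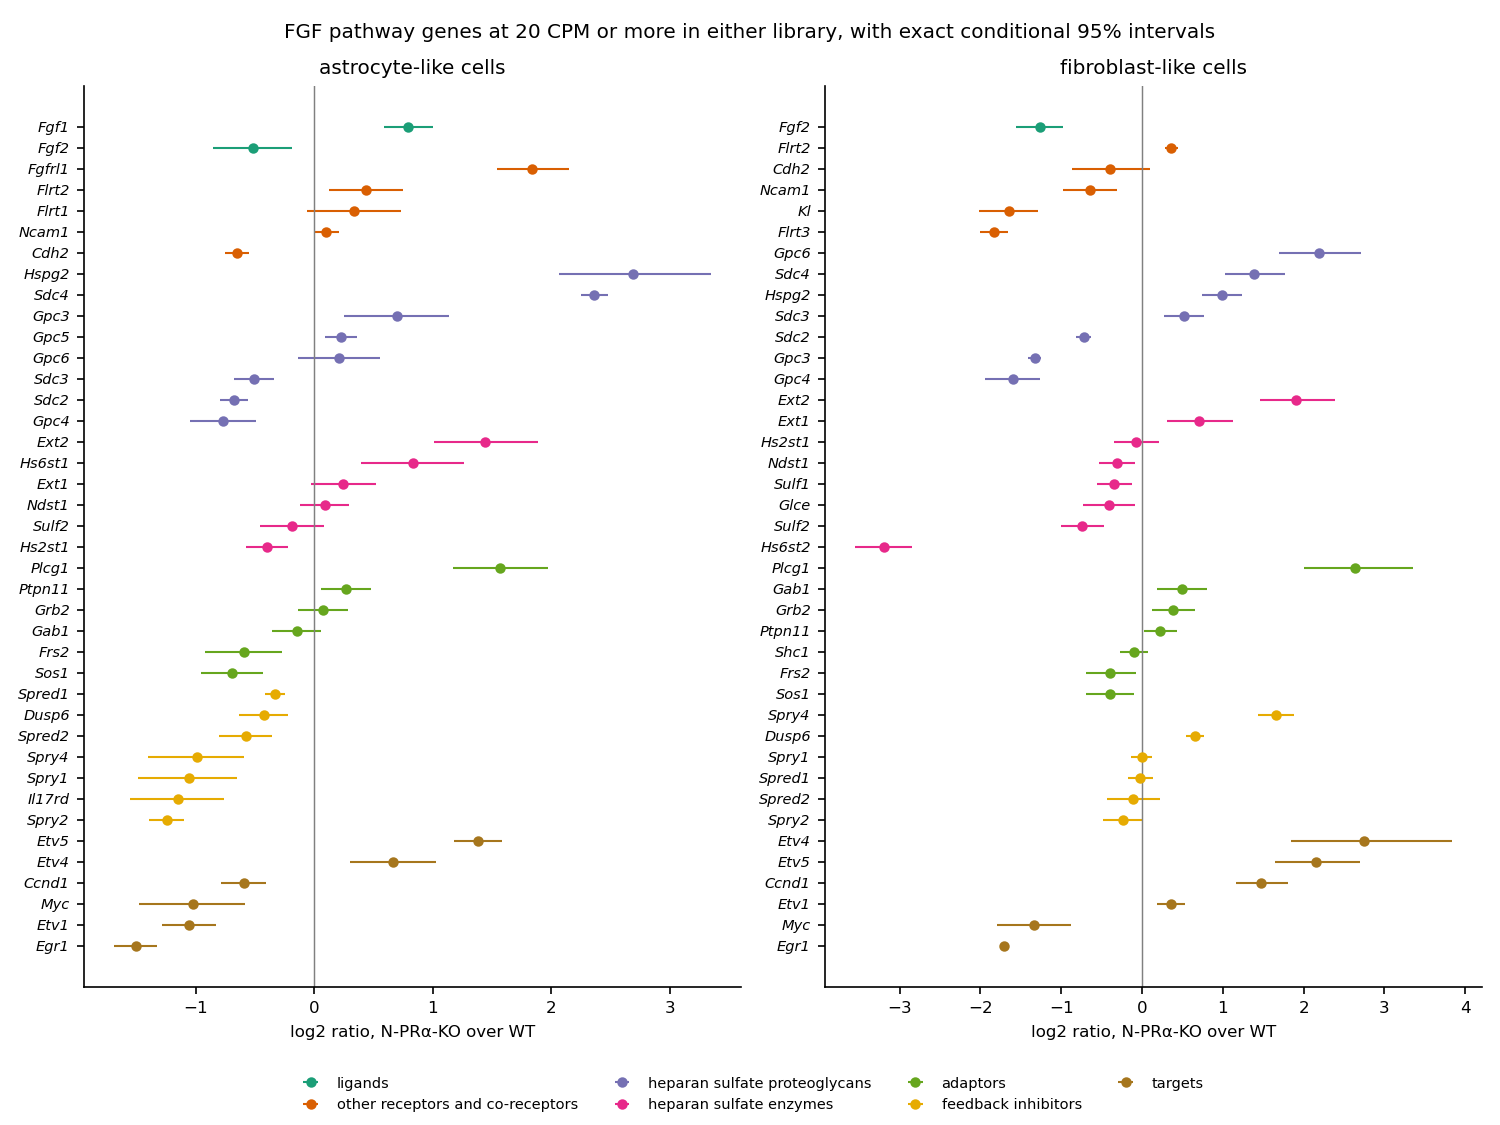
Log2 ratios of N-PRα-KO over WT (horizontal axes) for the 40 FGF pathway genes that reached 20 CPM in at least 1 library in astrocyte-like (left) and in fibroblast-like cells (right), coloured by role, with exact conditional 95% intervals. In astrocyte-like cells all 7 feedback inhibitors lie left of 0 with a median of -0.99, and in fibroblast-like cells the 6 measured have a median of -0.01.

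Genes with a pattern like each of the 5 were found by the Pearson correlation of log2(CPM + 10) over 21 class-by-library values among 8983 genes. These values share libraries and depth, so the correlations are descriptions. Fgfr3 was most like Aldh1l1 (r = 0.98), followed by Fbxo2, Cbs, Ntsr2 and Sorcs2 (0.93 to 0.95), which were all higher in N-PRα-KO astrocyte-like cells, Ntsr2 for instance at 959 CPM against 249 CPM in WT. Fgfr2 was most like Pdpn, a membrane glycoprotein gene (r = 0.92), which stood at 58.1 CPM in N-PRα-KO and 169 CPM in WT fibroblast-like cells. Pamr1, Npr2, Per3 and Sfrp1 came next. Fgfr1 was most like Slc7a2, a cationic amino acid transporter gene (r = 0.89), then Dkk3, Gpx8, Per3 and Ltbp3. Fgfbp1 was most like Lepr, the leptin receptor gene (r = 0.90), which stood at 75.7 CPM in N-PRα-KO and 290 CPM in WT fibroblast-like cells, then Cdh5, Fbln5, Itm2a and Dpp4. Fgfbp3 was most like Cth, which makes cysteine (r = 0.89), at 30.7 CPM in N-PRα-KO and 66.9 CPM in WT astrocyte-like cells, then Bmpr1b, Hgf, Hapln1 and Slc6a11. Among the 5 genes themselves, Fgfr1 and Fgfr2 were the most alike pair (r = 0.77), and Fgfr3 and Fgfbp1 the least (r = -0.20).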

How the data were processed

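Counts of unique molecules per cell and gene were made by the authors with the BD Rhapsody WTA Analysis Pipeline on GRCm38 and GENCODE M19, version 1.10 for the N-PRα-KO and 1.10.1 for the WT library, per the file headers. The pipeline had already picked the barcodes; no source used here names the aligner. The 5 genes and all gene lists were chosen with earlier results of these data known.

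Barcodes needed 300 genes or more and no more than 25% mitochondrial UMIs, which left 4196 of 8336 N-PRα-KO (50.3%) and 10069 of 11438 WT barcodes (88.0%). Scrublet calls (10, or 0.24%, and 174, or 1.73%) were removed; so low an N-PRα-KO share leaves doublets in that library possible. Cells were clustered with scanpy 1.11.5 (2000 variable genes per library without FGF genes, 30 components, 20 neighbours, Leiden resolution 1). Clusters took the class whose markers led by a mean log2 fold of at least 0.5 over other classes and over the next class, with at least 3 markers detected. Clusters within a class and library took the sub-class whose markers led the next by at least 0.5, with at least 3 detected. No minimum fold over the rest of the class was set there, so some sub-class names rest on low folds. The parenchymal markers had mean log2 folds of -0.11 and -0.14 in N-PRα-KO parenchymal sub-clusters of 154 and 84 cells, and -0.04 in a WT one of 329. The germinal-zone markers had 0.25 in a WT germinal-zone sub-cluster of 319 cells. Haemoglobin genes were left out of naming after they were seen to mislabel a WT precursor cluster.

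UMIs were summed per class and library, as CPM with exact Poisson intervals, shares with exact Clopper-Pearson intervals and log2 ratios with exact conditional intervals. Counts under 3 were set to 3 for ratios. Ratios were taken in classes of at least 50 cells in both libraries. Pathway genes were named by a rule, the 6 largest absolute ratios in the class where a member is highest, and the rest as examples chosen after their values were seen. The 5 most alike genes were named per member. The alternatives tried were a stricter cell filter, doublet calls kept, other scalings, thinning to 2000 UMIs, other clusterings, removal of the trend with GC content in the last 500 transcript bases (GENCODE M21) and subtraction of the microglia-like level.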

Additional observations from a re-analysis of the deposited data

Results flagged for a closer look

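For 3 of the 5 genes the N-PRα-KO over WT log2 ratio lay on opposite sides of 0 in different cell classes, with intervals that excluded 0. With 1 library per genotype, the difference between classes was not tested.

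For Fgfr1 the log2 ratio was 0.16 in fibroblast-like cells, against -0.51 in astrocyte-like, -0.39 in ependymal-like and -0.87 in oligodendrocyte-lineage-like cells. Within precursor-like cells the last of these was -0.47 with an interval, -1.18 to 0.16, that held 0. The fibroblast-like value was 0.00 after thinning, and its interval held 0 without 19 WT cells led by precursor genes.

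For Fgfr2 it was 2.26 in oligodendrocyte-lineage-like cells, against -1.22 in fibroblast-like, -0.51 in astrocyte-like and -0.66 in neuronal-lineage-like cells. In the first of these classes, all 52 N-PRα-KO UMIs came from 8 myelinating oligodendrocyte-like cells.

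For Fgfbp1 it was 1.04 in arachnoid barrier-like cells, on 29 and 16 UMIs, against -2.92 in fibroblast-like cells.

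Barcodes above the mitochondrial limit, which no comparison used, also held Fgfr3. Of 4126 such barcodes in N-PRα-KO and 1329 in WT, those with at least 300 genes were summed. As CPM of non-mitochondrial UMIs its level was 252.7 in 2659 N-PRα-KO barcodes and 41.6 in 851 WT barcodes, while kept barcodes held 131 in N-PRα-KO and 16.4 in WT.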

How the results depend on the processing

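No paired analysis was possible because there is 1 library per genotype. Of 302 ratios recomputed under the alternatives, 274 moved by less than their counting interval and 28 moved by more. Those past 2-fold as measured kept their sign, whereas several smaller ones crossed 0. Fgfr1 in arachnoid barrier-like cells ran from -1.05 to 0.14 and Fgfr2 in ependymal-like cells from -0.56 to 0.05. Fgfbp3 in neuronal-lineage-like cells ran from -0.93 to 0.32. In astrocyte-like cells the Fgfbp3 log2 ratio was -1.93 with the stricter cell filter, -2.25 with median-of-ratios scaling, -2.20 after thinning and -1.86 with the GC trend removed. The Fgfr3 ratio was 3.67 with median-of-ratios scaling, 3.28 after thinning and 3.66 with the GC trend removed, and the Fgfr2 ratio -0.27 with median-of-ratios scaling. In fibroblast-like cells the Fgfr1 ratio was 0.0040 after thinning and 0.35 with the GC trend removed, and the Fgfbp1 ratio was -3.59 when the libraries were clustered separately. The cause was not tested. The median log2 ratio of genes at 50 CPM or more was -0.24 in astrocyte-like and -0.09 in fibroblast-like cells, and the rank correlation of ratio with GC content was 0.64 and 0.54. The stricter filter left too few N-PRα-KO fibroblast-like cells for a value, and many ratios of other classes had none under it either. Outside the class where each gene was highest, 2 ratios moved and 7 did not under that filter. With FGF genes among the variable genes, 24 such ratios had a value. Fgfbp1 in the arachnoid barrier-like class reached 2.96 without dividing sub-clusters, an alternative added after seeing the data, as was leaving out 19 WT fibroblast-like cells led by precursor genes.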
